A study of Saccharomyces cerevisiae with 9 samples.

Results

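Changes in gene expression over 6700 generations of growth were compared between the evolved mutator line m8 and an evolved non-mutator strain of the budding yeast Saccharomyces cerevisiae. The comparison used 9 of the 9 arrays of the study: 6 of the mutator and 3 of the non-mutator. Each array carried the RNA of an evolved strain in Cy5 against that of its own ancestor in Cy3, so the mutator was set against the mutator ancestor and the non-mutator against the non-mutator ancestor. Evolved and ancestral cells were harvested from 3 ml glass-tube cultures in the rich medium YPD once their OD600 neared 0.3. Both arrays that carried the same evolved mutator RNA number, one from a first and one from a repeat round of hybridisation, were averaged, which left 3 mutator replicates (numbers 1, 2 and 3) and 3 non-mutator replicates (numbers 2, 3 and 4). By its title, the repeat array of mutator replicate 2 carried ancestor RNA number 1, as both arrays of mutator replicate 1 did. Mutator replicates 1 and 2 thus shared an ancestor RNA number, which the fit did not take into account. Each group stood for 1 evolved strain, no dyes were swapped, and the genotypes of the ancestors beyond mutator and non-mutator were not used here. Whether replicates were separate cultures is not stated, and the spread behind each p-value may be technical. Since each mutator replicate averaged both rounds, the mutator SDs and the p-values largely leave out the spread between rounds.

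A mutator is a strain whose mutation rate is raised, usually by loss of a DNA repair or proofreading function, and it gathers mutations faster than a non-mutator over the same number of generations. When both kinds of strain are kept in the same medium, changes can be set side by side: those that both strains made in the same direction, those they made in opposite directions, and those found in one of them. Haploid yeast cells of mating type a express a small group of a-specific genes for the a-factor pheromone and for sensing alpha cells, whereas alpha cells express the corresponding alpha-specific genes.

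Values are log2 ratios of evolved strain over ancestor with a median of 0 on every array, and differences are the mutator change minus the non-mutator change. Evolved over ancestor is the likely direction, read from the dyes in the labels, and the scale and any earlier centring of the deposited ratios are unknown. Deposited ratios had a median of 1.07, 1.07 and 1.06 in the first round of mutator replicates 1, 2 and 3, of 1.06, 1.07 and 1.06 in the repeat round, and of 1.01, 1.0 and 1.0 in non-mutator replicates 2, 3 and 4. The array sets also differed in spread, with a standard deviation over probes of 0.85 to 1.0 log2 units for the 6 mutator arrays against 0.28 to 0.30 for the 3 non-mutator arrays. Array set and strain cannot be told apart, since no array set held both strains. On each non-mutator array, 294 to 327 probes lay within 0.002 log2 units of one and the same ratio, where a window of that width held a median of 18 to 20 probes; on mutator arrays the fullest window held 20 to 50. In all, 248 probes sat at this shared ratio on all 3 non-mutator arrays, many of them for abundant transcripts such as those of ribosomal proteins and glycolytic enzymes. Their non-mutator change therefore carries no information of its own, and counts for lists that hold such probes are given without them or with and without them; the cause was not tested.

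Of 6866 probes tested, 4390 (63.9%) differed between the mutator and the non-mutator change at an adjusted p under 0.05 (limma, Benjamini-Hochberg over all probes tested). The mutator value was higher for 2266 (33.0%) and lower for 2124 (30.9%). Against their own ancestors, 2561 probes (37.3%) rose and 2593 (37.8%) fell in the mutator, whereas 698 (10.2%) rose and 759 (11.1%) fell in the non-mutator. Both strains shared one estimate of the spread per probe, so not passing in the non-mutator does not show absence of change. The median size of the change was 0.45 log2 units in the mutator and 0.12 in the non-mutator, and the median replicate SD was 0.13 in the mutator and 0.08 in the non-mutator. Of 1216 probes called in both strains, 575 moved alike and 641 in opposite directions. Among those alike, 194 (2.83%) rose and 381 (5.55%) fell in both, and among those opposed, 223 (3.25%) rose in the mutator and fell in the non-mutator, while 418 (6.09%) did the reverse. Over the 6866 probes, the group means of the 2 strains had a Pearson's r of 0.0045 and a Spearman's rho of 0.03, a description across probes that share the same arrays. Probes called in both strains made up 23.6% of the mutator calls and 83.5% of the non-mutator calls. Of the probes that rose in the non-mutator, 59.9% fell and 27.8% rose in the mutator, and of those that fell, 50.2% fell and 29.4% rose. These class counts fell when any of the non-mutator replicates was left out: without non-mutator replicate 2, 598 probes passed in the non-mutator, 240 moved alike and 272 in opposite directions. Without non-mutator replicate 3 these counts were 347, 127 and 177, and without non-mutator replicate 4 they were 351, 125 and 186. Without mutator replicate 1, 2 or 3, 722, 572 and 507 moved alike and 778, 650 and 576 in opposite directions. With the hybridisation round as a random block, 35 moved alike, 33 in opposite directions, and 2675 differences passed. Non-mutator calls, 1457 in the reported fit, numbered 2479 with each group fitted alone and 2589 with array weights per group. With every array scaled to one median absolute deviation they numbered 3455, against 3605 in the mutator. They fell to 298 with the 6 mutator arrays as replicates and to 83 with the round as a random block.

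**Figure D1:**
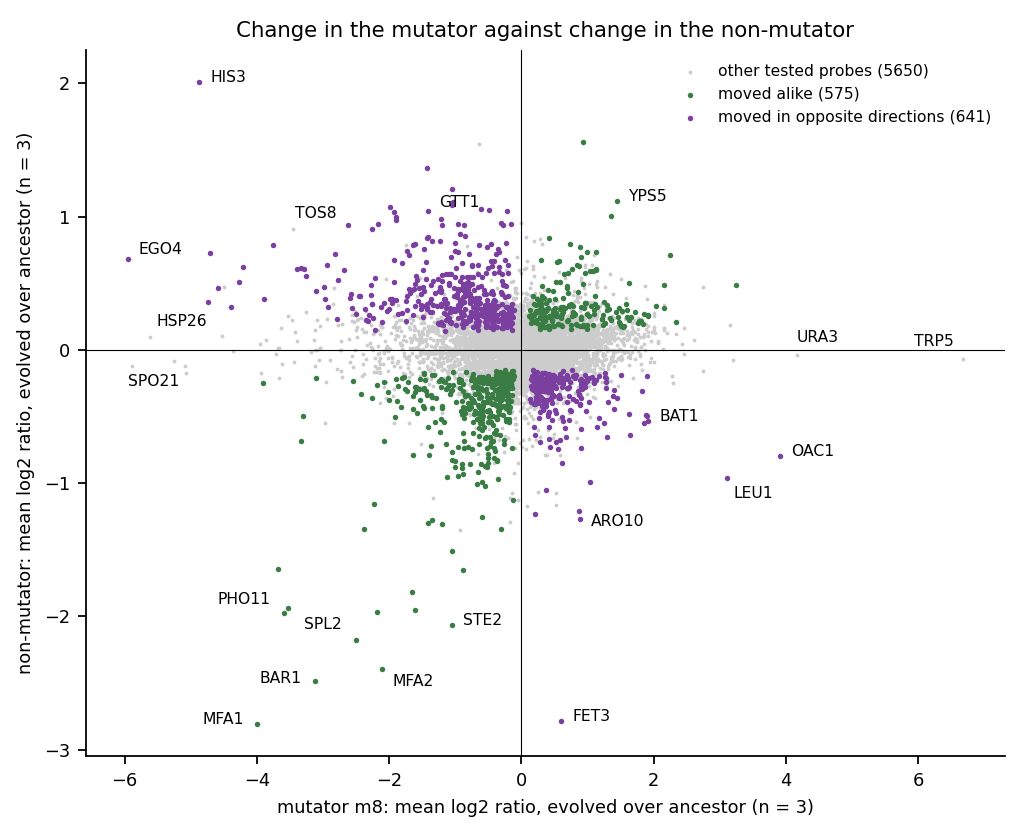
Mean log2 ratio of evolved over ancestor for each of 6866 tested probes in the mutator (x axis, n = 3) and the non-mutator (y axis, n = 3), with 575 probes that moved alike in green and 641 that moved in opposite directions in purple. The axes differ in scale, and the large shared changes lie at the lower left, among them MFA1, MFA2, BAR1, PHO11 and SPL2.

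The split between directions changed with the size of the changes. Among the 203 probes that changed by at least 0.5 log2 units in both strains, 97 moved alike and 106 in opposite directions, close to the split over all called probes. At 1 log2 unit or more in both, 27 probes were left, of which 17 fell in both, 2 rose in both, 8 fell in the mutator but rose in the non-mutator, and 0 did the reverse. At 2 log2 units or more, 4 of 5 probes fell in both strains (MFA1, MFA2, BAR1 and SPL2) and the fifth was HIS3, which was opposed. Of the 17 large shared decreases, 6 were genes of mating (MFA1, MFA2, STE2, BAR1, AGA2 and SST2) and 7 of phosphate supply (PHO8, PHO11, PHO12, PHO84, PHO89, SPL2 and VTC3). The others were NDJ1, a meiotic telomere gene (-1.35 ± 0.46 in the mutator and -1.27 ± 0.10 in the non-mutator), the arsenite exporter gene ARR3 (-1.05 ± 0.50 in the mutator and -1.51 ± 0.14 in the non-mutator), the open reading frame YNL089C and 1 probe without a gene name. They are named for their size, outside the naming rule, and 1 mutator array of NDJ1 was at the floor ratio.

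**Figure D2:**
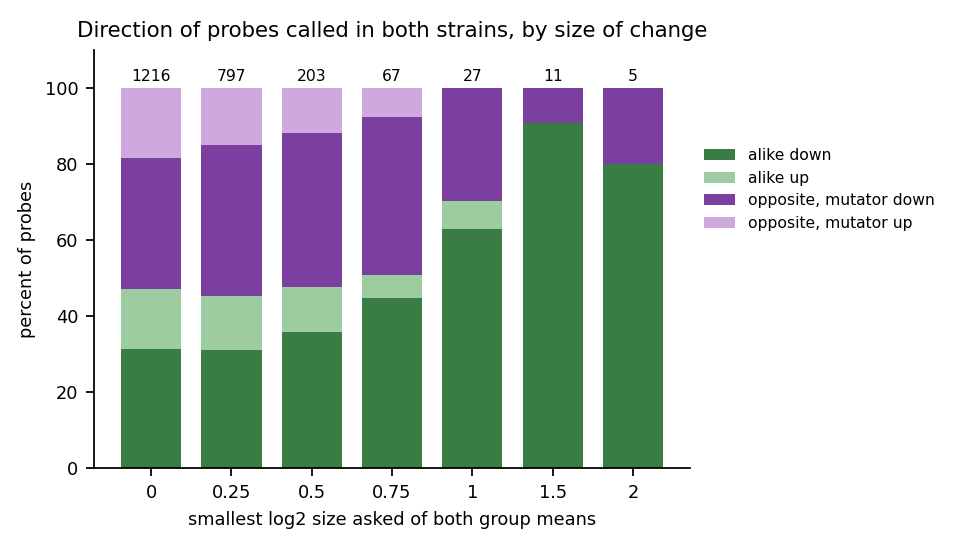
Share of probes called in both strains that moved alike or in opposite directions (y axis, percent), for a rising minimum size of both group means in log2 units (x axis), with the number of probes above each bar. From a minimum of 1 log2 unit upward, decreases in both strains make up most of the 27, 11 and 5 probes left.

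The a-specific genes fell in both evolved strains. MFA1 (YDR461W), one of the pair of genes for the precursor of a-factor, was at -4.40, -3.81 and -3.79 in mutator replicates and -2.91, -2.74 and -2.77 in non-mutator replicates. The decrease was larger in the mutator (difference -1.19, 95% interval -1.61 to -0.77, limma adjusted p = 0.0012), although the difference turned to 3.96 when every array was scaled to one median absolute deviation. MFA2 (YNL145W), the other precursor gene, was at -1.93, -2.13 and -2.27 in the mutator and -2.53, -2.31 and -2.33 in the non-mutator. For MFA2 the replicates of the strains came close without overlap, and the difference of 0.28 did not pass (adjusted p = 0.066).

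STE2 (YFL026W), which encodes the receptor for alpha-factor, fell to -1.04, -1.1 and -1.02 in the mutator and -2.03, -2.17 and -2.01 in the non-mutator, and the non-mutator decrease was the larger (difference 1.01, interval 0.84 to 1.18, adjusted p = 4.7e-05). STE6, the a-factor exporter gene, showed the same order, with -0.80, -1.0 and -0.87 in the mutator against -1.69, -1.68 and -1.59 in the non-mutator (adjusted p = 0.00021). Every non-mutator replicate of both genes lay below every mutator replicate. BAR1, which encodes the protease that degrades alpha-factor, was at -3.23, -3.28 and -2.86 in the mutator and -1.92, -2.92 and -2.62 in the non-mutator; the replicates overlapped and the difference did not pass (adjusted p = 0.077). AGA2, for the adhesion subunit of a-agglutinin, was at -2.23 ± 0.08 in the mutator and -1.15 ± 0.11 in the non-mutator (SD, n = 3 each, adjusted p = 7.3e-05), but under the scaling of arrays this difference turned to 1.23. ASG7 fell in the mutator, to -2.07 ± 0.36, and stood at -0.28 ± 0.02 in the non-mutator, where it did not pass (adjusted p = 0.18), and it differed between strains (adjusted p = 0.00023). Its non-mutator test used the spread shared by both strains, to which the wider mutator replicates contributed, so absence of a non-mutator change is not shown. In all, 7 of 7 a-specific genes fell in the mutator and 6 of 7 in the non-mutator, beside 37.8% and 11.1% of all probes, with median changes of -2.11 ± 0.03 in the mutator and -2.07 ± 0.13 in the non-mutator (SD of replicate medians). The order of the strains was thus not shared by the genes: of 7 differences, 3 were lower and 2 higher in the mutator, and the median difference was -0.64, against 3.73 when arrays were scaled.

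Genes of the pheromone pathway that act in both mating types joined these decreases in part. SST2, whose product turns off the pheromone-coupled G protein, was at -1.46, -1.83 and -1.68 in the mutator and -1.69, -1.94 and -1.83 in the non-mutator, with overlapping replicates and no called difference (adjusted p = 0.27). GPA1, the alpha subunit gene of that G protein, fell less in the mutator (-0.41 ± 0.07) than in the non-mutator (-0.81 ± 0.08), with a difference of 0.40 (adjusted p = 0.0031). SST2 and GPA1 were chosen after their values were seen. Of 30 pheromone response genes, 6 fell in both strains, beside 5.55% of all probes. None were opposed, beside 3.25% of all probes opposed with the mutator up and 6.09% with it down. The cell fusion gene FUS1 was at -2.72 ± 0.24 in the mutator and -0.16 ± 0.06 in the non-mutator (adjusted p = 1.5e-05), and PRM8 at -2.19 ± 0.05 in the mutator and -0.26 ± 0.02 in the non-mutator (adjusted p = 3.9e-06). KAR3, a kinesin gene used in nuclear fusion and in mitosis, was higher in the mutator (1.16 ± 0.08 in the mutator against 0.03 ± 0.08 in the non-mutator, adjusted p = 4.3e-05).

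Of 7 alpha-specific genes tested, 2 had a called difference, both lower in the mutator and copies of one gene, beside 30.9% of all probes lower. Against the ancestors, 5 of the 7 fell in the mutator and 3 in the non-mutator, beside 37.8% and 11.1% of all probes. The 3 that fell in both, beside 5.55% of all probes, were SAG1 and the copies HMLALPHA2 and MATALPHA2. HMLALPHA1, for the activator of alpha-specific genes, fell to -4.89, -5.51 and -4.84 in mutator replicates, against -0.35, 0.007 and -0.02 in non-mutator replicates (adjusted p = 8.1e-06). It is a near-identical copy of MATALPHA1, which read -5.08 ± 0.47 in the mutator and -0.17 ± 0.21 in the non-mutator, so the copies cannot be read separately. For HMLALPHA1, 2 of the 6 mutator arrays held the floor ratio of 0.01 and were treated as missing. The a-factor receptor gene STE3 was at 0.05 ± 0.79 in the mutator and 0.18 ± 0.19 in the non-mutator, with no called difference (interval -1.06 to 0.79), and the alpha-agglutinin gene SAG1 fell to -0.58 ± 0.18 in the mutator and -0.50 ± 0.14 in the non-mutator with an interval of -0.37 to 0.20 for the difference. MF(ALPHA)2, a gene for the alpha-factor precursor, had values in 2 mutator replicates (0.67 and -0.92) and 3 non-mutator replicates (0.14, -0.38 and -0.25) and no called difference (interval -1.18 to 1.26). These are ratios against the ancestor and do not show whether a gene was expressed.

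The phosphate regulon, the genes that yeast raises when phosphate is short, was the other group with large decreases in both strains. PHO84 (YML123C), the main high-affinity phosphate transporter gene, was at -2.35, -2.55 and -2.26 in the mutator and -1.45, -1.30 and -1.29 in the non-mutator (difference -1.04, adjusted p = 0.00018), and this difference turned to 1.60 when arrays were scaled. PHO89, for a sodium-coupled phosphate transporter, was at -1.43, -1.79 and -1.59 in the mutator and -1.76, -2.21 and -1.89 in the non-mutator, and SPL2, for a small protein that restrains low-affinity phosphate uptake, was at -2.47, -2.30 and -2.75 in the mutator and -2.35, -2.17 and -2.02 in the non-mutator. One mutator array of PHO89 was at the floor ratio and left out. Replicates of PHO89 and SPL2 overlapped between strains, and neither difference passed (adjusted p = 0.077 and 0.086). The secreted acid phosphatase genes PHO11 and PHO12 are near-identical and cannot be read separately: PHO11 was at -3.57, -3.64 and -3.56 in the mutator and -1.99, -2.06 and -1.87 in the non-mutator. PHO11 fell further in the mutator (difference -1.62, adjusted p = 1e-05), a difference that turned to 2.25 under the scaling of arrays, as that of PHO12 turned to 2.21. PHO5, the main acid phosphatase gene, fell less in the mutator (-0.59 ± 0.07) than in the non-mutator (-0.99 ± 0.08, adjusted p = 0.0033).

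Genes of the VTC complex, which makes polyphosphate in the vacuolar membrane, fell in both strains. VTC3 was at -1.32, -1.53 and -1.37 in the mutator and -1.47, -1.22 and -1.20 in the non-mutator. VTC4, the catalytic subunit gene, was at -1.15, -1.17 and -1.06 in the mutator and -1.03, -0.87 and -0.97 in the non-mutator. VTC1 was at -0.90 ± 0.13 in the mutator and -0.89 ± 0.05 in the non-mutator, with an interval of -0.21 to 0.20 for the difference. None of the 3 differences passed (adjusted p = 0.37, 0.074 and 0.96), which does not show that the decreases were equal, and with arrays scaled the differences were 2.12, 1.51 and 1.5. PHO8, for the vacuolar alkaline phosphatase, was likewise at -1.21 ± 0.03 in the mutator and -1.30 ± 0.09 in the non-mutator (interval -0.07 to 0.26). Of 24 genes of the list, 13 fell in both strains, beside 5.55% of all probes, with a median change of -1.01 ± 0.20 in the mutator and -0.82 ± 0.08 in the non-mutator. The median difference was 0.05, against 0.05 over all probes, and 1.55 with arrays scaled.

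Other members of the list differed. PHM8, for a nucleotide phosphatase, was at -3.12 ± 0.08 in the mutator and -0.12 ± 0.04 in the non-mutator (adjusted p = 1.9e-06), and the glycerol phosphatase gene GPP2 at -2.52 ± 0.10 in the mutator and 0.21 ± 0.16 in the non-mutator (adjusted p = 7e-06). PHO4, for the transcription factor that activates the regulon, rose in the mutator (0.44 ± 0.08) and fell in the non-mutator (-0.37 ± 0.20), and PHO90, a low-affinity transporter gene, was at 1.28 ± 0.09 in the mutator and -0.07 ± 0.15 in the non-mutator (adjusted p = 0.001 and 5.8e-05 for the differences). PHO81, for the inhibitor of the kinase that restrains PHO4, fell in both, to -1.41 ± 0.23 in the mutator and -0.58 ± 0.03 in the non-mutator, with a difference of -0.83 that turned to 0.42 when arrays were scaled. Of the phosphate genes described, PHO11, PHO12, PHM8, GPP2 and SPL2 came from the naming rule and the others were chosen after their values were seen.

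Smaller shared decreases were found in ergosterol synthesis, the pathway of the main fungal membrane sterol. ERG11, for the lanosterol demethylase, was at -0.44, -0.50 and -0.43 in the mutator and -0.53, -0.60 and -0.49 in the non-mutator, with no called difference (adjusted p = 0.28). ERG3, for the C-5 desaturase, fell less in the mutator (-0.50 ± 0.05) than in the non-mutator (-0.81 ± 0.09, adjusted p = 0.0099). Both were chosen after their values were seen. Of 31 genes, 9 fell in both strains, beside 5.55% of all probes. The mutator rose and the non-mutator fell in 3, beside 3.25% of all probes, and 1, ERG28, did the reverse, beside 6.09%. ERG5 was one of those opposed, at 0.99 ± 0.08 in the mutator and -0.23 ± 0.09 in the non-mutator (adjusted p = 3.3e-05). The mutator median of the list was -0.30 on first-round and -0.03 on repeat arrays. Its median difference of 0.08 was -0.07 with first-round arrays, 0.27 with repeat arrays and 0.64 with arrays scaled. The proteasome list also moved one way in both strains, with 10 of 34 genes lower in both, beside 5.55% of all probes, and 0 opposed, at small sizes: SCL1 was at -0.55 ± 0.07 in the mutator and -0.23 ± 0.04 in the non-mutator and PRE8 at -0.48 ± 0.06 in the mutator and -0.16 ± 0.05 in the non-mutator. The differences of SCL1 and PRE8 (adjusted p = 0.0057 and 0.0053) were -0.32 and -0.31, but 0.18 and 0.06 when arrays were scaled, as the median difference of the list was -0.14 and 0.14.

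Increases shared by both strains were fewer and smaller. YPS5, a member of the yapsin protease family, rose to 1.77, 1.31 and 1.23 in the mutator and 1.05, 1.26 and 1.04 in the non-mutator, with overlapping replicates (adjusted p = 0.12 for the difference). YPS5 had a value on 3 of the 6 mutator arrays, so its mutator replicates rest on 1 array each. SIR2, for the histone deacetylase of silent chromatin, rose to 1.12, 1.18 and 1.09 in the mutator and 0.58, 0.52 and 0.72 in the non-mutator (difference 0.52, adjusted p = 0.0011). ECM1, for a factor in the export of the large ribosomal subunit, rose to 2.24 ± 0.21 in the mutator and 0.71 ± 0.17 in the non-mutator (adjusted p = 0.00015). The differences of YPS5, SIR2 and ECM1 turned to -1.67, -0.69 and -0.19 with arrays scaled. SPO22, a meiosis gene, was at 0.88 ± 0.40 in the mutator and 0.77 ± 0.10 in the non-mutator, RRT5 at 0.99 ± 0.36 (n = 2) in the mutator and 0.73 ± 0.11 in the non-mutator, and the low-affinity phosphate transporter gene PHO87 at 0.76 ± 0.31 in the mutator and 0.61 ± 0.04 in the non-mutator, each with a difference that did not pass (adjusted p = 0.65, 0.25 and 0.41). The condensin subunit gene BRN1 rose in both strains but far more in the mutator, at 3.14, 3.27 and 3.32 in the mutator against 0.20, 0.67 and 0.58 in the non-mutator (difference 2.76, adjusted p = 1.4e-05).

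**Figure D3:**
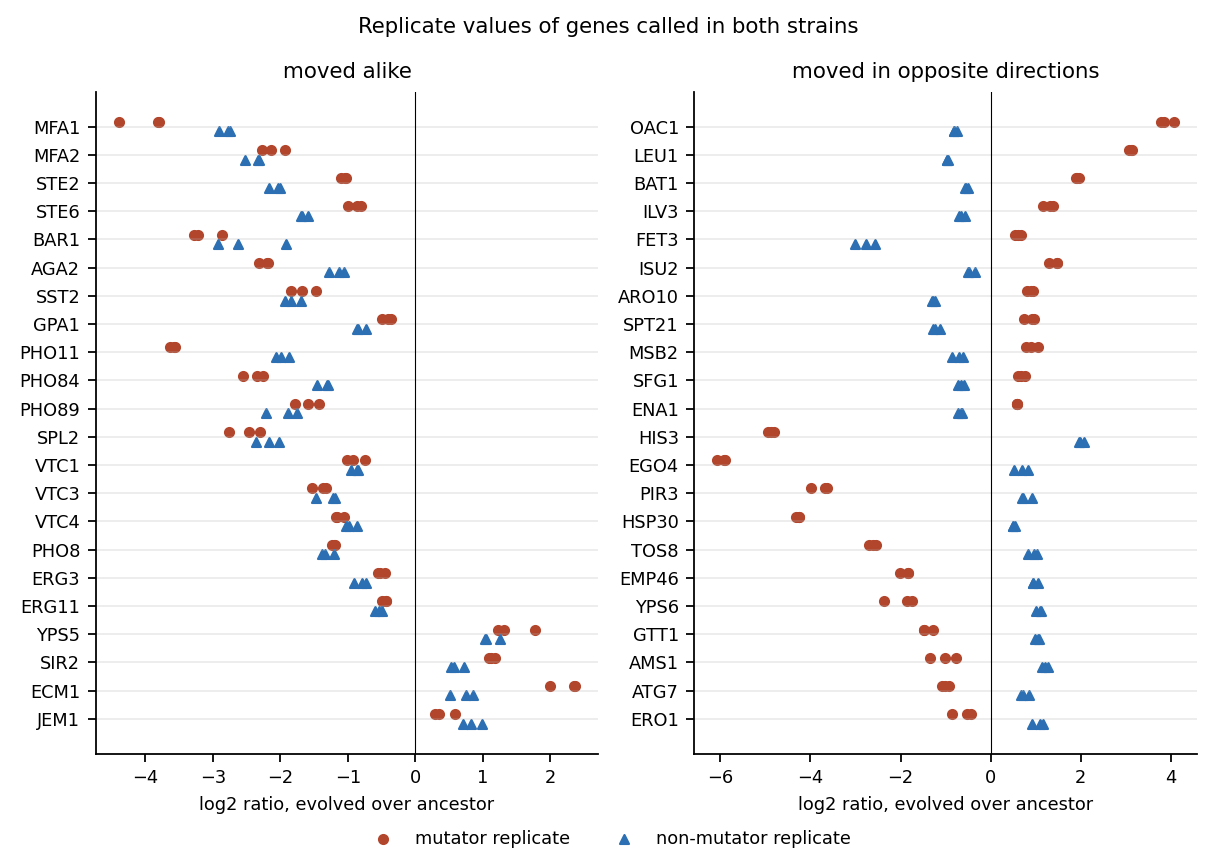
Log2 ratio of evolved over ancestor (x axis) in each mutator replicate (circles) and each non-mutator replicate (triangles) for 22 genes that moved alike and 22 that moved in opposite directions. Replicates of SST2, VTC3 and SPL2 overlap between strains, whereas those of OAC1, LEU1 and HIS3 lie on opposite sides of 0.

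Genes of branched-chain amino acid synthesis were prominent among those that rose in the mutator and fell in the non-mutator. The transcription factor Leu3 activates genes of leucine, isoleucine and valine synthesis when the pathway intermediate isopropylmalate builds up. LEU1 (YGL009C), for isopropylmalate isomerase, was at 3.11, 3.06 and 3.14 in mutator replicates and -0.97, -0.95 and -0.96 in non-mutator replicates (difference 4.07, SE 0.06, adjusted p = 7e-07). OAC1 (YKL120W), a carrier gene of the mitochondrial inner membrane, was at 3.86, 4.07 and 3.79 in the mutator and -0.81, -0.82 and -0.75 in the non-mutator, a 26-fold difference between the changes (adjusted p = 1.2e-06). BAT1, for the mitochondrial branched-chain transaminase, was at 1.90, 1.91 and 1.95 in the mutator and -0.51, -0.54 and -0.56 in the non-mutator (adjusted p = 1.9e-06). In each of these genes all mutator replicates were above 0 and all non-mutator replicates below it.

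The dihydroxyacid dehydratase gene ILV3 was at 1.29 ± 0.11 in the mutator and -0.65 ± 0.07 in the non-mutator (adjusted p = 8.5e-06). The acetolactate synthase gene ILV2 was at 0.53 ± 0.13 in the mutator and -0.47 ± 0.04 in the non-mutator (adjusted p = 0.0001). ILV5 rose in the mutator (1.88 ± 0.03) and did not pass in the non-mutator (adjusted p = 1). LEU2 and LEU4 went another way: LEU2 fell to -0.44, -0.58 and -0.64 in the mutator and -0.78, -0.96 and -0.86 in the non-mutator, and LEU4 to -0.52 ± 0.12 in the mutator and -0.39 ± 0.03 in the non-mutator (adjusted p = 0.19 for the difference). In this list of 9 Leu3 targets, chosen after values were seen, 5 were opposed with the mutator up, beside 3.25% of all probes. Of the 9, 2 fell in both, beside 5.55%, and 8 differences were higher in the mutator, beside 33.0%. The median was 1.29 ± 0.11 in the mutator and -0.54 ± 0.02 in the non-mutator. Over the 68 genes of amino acid synthesis as a whole, 16 fell in both strains, 9 were opposed with the mutator up and 1, HIS3, with the mutator down. Over all probes these shares were 5.55%, 3.25% and 6.09%.

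Iron uptake genes were opposed as well, but their mutator change depended on the hybridisation round. FET3 (YMR058W), for the ferroxidase of high-affinity iron uptake, was at 0.54, 0.60 and 0.68 in mutator replicates and -2.76, -3.02 and -2.57 in non-mutator replicates (difference 3.39, adjusted p = 5.9e-06). Its mutator mean was -0.17 on first-round and 1.38 on repeat arrays, so the opposite sign came from the repeat round, whereas the non-mutator decrease was the largest single change of that strain among genes that moved more there. FTR1, for the permease that partners FET3, was at 0.76 ± 0.01 in the mutator (0.07 in the first and 1.44 in the repeat round) and -0.45 ± 0.05 in the non-mutator (adjusted p = 1.3e-05). ISU2, a scaffold gene for iron-sulfur clusters, was at 1.46, 1.47 and 1.29 in the mutator and -0.49, -0.50 and -0.35 in the non-mutator, and the biotin transporter gene VHT1 at 1.18 ± 0.04 in the mutator and -0.19 ± 0.08 in the non-mutator (adjusted p = 1e-05 and 1.4e-05). Of 32 iron regulon genes, 8 were opposed with the mutator up, beside 3.25% of all probes, 0 were opposed with the mutator down, and 4 fell in both. With first-round mutator arrays alone 9 differences were higher and 11 lower (mutator median -0.17), against 16 and 3 with repeat arrays (mutator median 0.46). Replicate medians were 0.19, 0.02 and 0.14 in the mutator and -0.12, -0.24 and -0.20 in the non-mutator.

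Among single genes opposed with the mutator up, ARO10, for the decarboxylase of aromatic amino acid breakdown, was at 0.95, 0.81 and 0.90 in the mutator and -1.30, -1.23 and -1.28 in the non-mutator (adjusted p = 3.7e-06). SPT21, which acts in the transcription of histone genes, was at 0.97, 0.74 and 0.91 in the mutator and -1.12, -1.28 and -1.23 in the non-mutator (adjusted p = 8.1e-06). The mucin-like osmosensor gene MSB2 was at 0.91 ± 0.13 in the mutator and -0.73 ± 0.12 in the non-mutator (adjusted p = 3e-05). SFG1, a transcription factor gene of pseudohyphal growth, was at 0.68 ± 0.08 in the mutator and -0.66 ± 0.06 in the non-mutator (adjusted p = 1.8e-05). No replicates overlapped in these 4 genes. The sodium pump gene ENA1 was at 0.58 ± 0.004 in the mutator and -0.67 ± 0.04 in the non-mutator, with its near-identical copy ENA2 at 0.55 ± 0.04 in the mutator and -0.74 ± 0.09 in the non-mutator. By round, the mutator mean of ENA1 was 0.47 in the first and 0.70 in the repeat round, a spread that its SD leaves out. The magnesium transporter gene ALR1 was at 0.52 ± 0.05 in the mutator and -0.69 ± 0.11 in the non-mutator; these 3 opposed genes were chosen after their values were seen. Of 20 copper and zinc genes, 2 of them at the shared ratio, 4 were opposed with the mutator up, beside 3.25% of all probes. Among them were IZH1 at 1.89 ± 0.06 in the mutator and -0.20 ± 0.07 in the non-mutator and the zinc transporter gene ZRT2 at 0.43 ± 0.05 in the mutator and -0.30 ± 0.08 in the non-mutator (adjusted p = 4.1e-06 and 0.00017).

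The largest opposite change was in HIS3 (YOR202W, chromosome XV), for a dehydratase of histidine synthesis that also serves as a laboratory marker gene. HIS3 was at -4.81, -4.87 and -4.93 in mutator replicates and 1.99, 1.97 and 2.07 in non-mutator replicates. The difference of -6.88 (interval -7.04 to -6.72, adjusted p = 1.8e-07) was the lowest of the 6866 tested. Of the other marker genes, URA3 was at 2.94, 4.41 and 5.15 in the mutator and -0.17, 0.03 and 0.03 in the non-mutator, TRP1 at -2.71 ± 0.15 in the mutator and -0.20 ± 0.06 in the non-mutator, MET17 at -2.10 ± 0.13 in the mutator and 0.17 ± 0.01 in the non-mutator, ADE2 at -2.83 ± 0.36 in the mutator and 0.46 ± 0.09 in the non-mutator and LYS2 at -1.12 ± 0.14 in the mutator and -0.21 ± 0.08 in the non-mutator. Each of these 5 differed between strains (adjusted p = 0.00063, 6.3e-06, 6e-06, 2.1e-05 and 0.00025), and none of the 5 passed in the non-mutator. Whether evolved strains and ancestors carried the same marker alleles was not tested.

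Other genes with very large mutator decreases rose in the non-mutator. EGO4 was at -5.91, -6.07 and -5.89 in the mutator and 0.52, 0.84 and 0.70 in the non-mutator (adjusted p = 7.8e-07). The mutator means of EGO4 leave out 2 arrays at the floor ratio. The glycogen phosphorylase gene GPH1 was at -4.70 ± 0.30 in the mutator and 0.73 ± 0.14 in the non-mutator, RGI1 at -4.74 ± 0.07 in the mutator and 0.36 ± 0.13 in the non-mutator, and YRO2 at -4.59 ± 0.21 in the mutator and 0.46 ± 0.05 in the non-mutator (adjusted p = 3.7e-06, 9.3e-07 and 1.9e-06). PIR3, for a protein linked to wall glucan, was at -3.62, -3.98 and -3.68 in the mutator and 0.93, 0.72 and 0.70 in the non-mutator, and the membrane heat shock gene HSP30 at -4.26, -4.25 and -4.31 in the mutator and 0.49, 0.49 and 0.55 in the non-mutator. The replicates of PIR3 and HSP30 were more than 4 log2 units apart between strains (adjusted p = 2.5e-06 and 4.2e-07). SSE2, a chaperone gene of the Hsp110 family, was at -2.68 ± 0.14 in the mutator and 0.60 ± 0.07 in the non-mutator (adjusted p = 2.6e-06), and the hexose transporter gene HXT4 at -2.98 ± 0.14 in the mutator and 0.47 ± 0.14 in the non-mutator (adjusted p = 3.7e-06).

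Of the genes with at least 1 log2 unit in both strains, the glutathione transferase gene GTT1 was at -1.48, -1.48 and -1.29 in the mutator and 1.08, 1.06 and 0.98 in the non-mutator, and YPS6, another yapsin, at -1.74, -2.36 and -1.86 in the mutator and 1.12, 1.1 and 1.01 in the non-mutator. YPS6 thus moved in opposite directions while its family member YPS5 rose in both. YGL258W-A was at -1.43 ± 0.72 in the mutator and 1.37 ± 0.05 in the non-mutator (adjusted p = 0.00054). ULI1, a gene induced by misfolded protein in the endoplasmic reticulum, was at -1.05 ± 0.15 in the mutator and 1.09 ± 0.08 in the non-mutator (adjusted p = 1e-05). TOS8, for a homeodomain protein, was at -2.62 ± 0.08 in the mutator and 0.94 ± 0.10 in the non-mutator (adjusted p = 1.9e-06). EMP46, for a cargo lectin of the secretory pathway, was at -1.90 ± 0.09 in the mutator and 0.98 ± 0.06 in the non-mutator (adjusted p = 2.5e-06). TOS8 and EMP46 were chosen after their values were seen.

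Several autophagy genes, for the machinery that delivers cytoplasm to the vacuole, fell in the mutator and rose in the non-mutator. AMS1, for a vacuolar mannosidase delivered by this route, was at -0.78, -1.34 and -1.01 in the mutator and 1.14, 1.28 and 1.20 in the non-mutator (adjusted p = 3.8e-05), and the aminopeptidase gene APE1, for the main cargo of the same route, at -3.03, -2.94 and -2.93 in the mutator and 0.41, 0.32 and 0.41 in the non-mutator (adjusted p = 1.3e-06). ATG7, for the enzyme that activates the conjugation system, was at -1.07, -1.01 and -0.93 in the mutator and 0.71, 0.84 and 0.68 in the non-mutator. ATG17, a scaffold gene of the initiation complex, was at -0.49 ± 0.11 in the mutator and 1.05 ± 0.12 in the non-mutator, and the mitophagy gene ATG33 at -0.96 ± 0.02 in the mutator and 0.74 ± 0.05 in the non-mutator. The differences of ATG7, ATG17 and ATG33 passed (adjusted p = 9.3e-06, 2.8e-05 and 5.7e-06). Of 36 genes with an ATG name, 14 fell in the mutator and rose in the non-mutator, beside 6.09% of all probes, and 28 had a lower and 0 a higher difference, beside 30.9% and 33.0%. The exception among genes called in both was ATG5, which fell in both, to -0.58 ± 0.08 in the mutator and -0.42 ± 0.12 in the non-mutator. Replicate medians of the group were -0.72, -0.75 and -0.69 in the mutator and 0.16, 0.23 and 0.17 in the non-mutator. The group was formed by name after values were seen.

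The PAU and COS gene families, which lie largely near chromosome ends, moved in the same directions. The PAU genes encode small wall proteins induced without oxygen, and PAU1 was at -0.74, -0.85 and -0.85 in the mutator and 0.45, 0.51 and 0.57 in the non-mutator (adjusted p = 1.7e-05). All 24 PAU genes fell in the mutator with a called lower difference, beside 37.8% and 30.9% of all probes, and 20 of them rose in the non-mutator, beside 10.2%. Their median was -0.89 ± 0.08 in the mutator and 0.36 ± 0.02 in the non-mutator, and the median difference was -0.75 with the first and -1.81 with the repeat mutator arrays. The COS genes, which act in the sorting of membrane proteins to the vacuole, had 8 of 12 opposed in this direction, beside 6.09% of all probes. COS1 was among them, at -1.20 ± 0.18 in the mutator and 0.94 ± 0.03 in the non-mutator, and COS5 fell in both, to -1.35 ± 0.05 in the mutator and -0.19 ± 0.07 in the non-mutator. Members of either family are near-identical in sequence, so their probes may share signal and are not independent of each other; both groups were formed by name after values were seen.

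In genes of folding in the endoplasmic reticulum, the non-mutator change was often the larger. ERO1, for the thiol oxidase that drives disulfide formation, was at -0.85, -0.44 and -0.52 in the mutator and 0.93, 1.15 and 1.09 in the non-mutator (adjusted p = 7.2e-05). DER1, which acts in the removal of misfolded proteins, was at -0.22 ± 0.08 in the mutator and 1.04 ± 0.08 in the non-mutator (adjusted p = 2.8e-05). SIL1, for an exchange factor of the chaperone Kar2, was at -0.16 ± 0.05 in the mutator and 0.95 ± 0.05 in the non-mutator (adjusted p = 2.3e-05). KAR2 itself was at -0.77 ± 0.10 in the mutator and 0.37 ± 0.17 in the non-mutator (adjusted p = 0.00017). JEM1, for a co-chaperone of Kar2, rose in both strains but less in the mutator (0.59, 0.30 and 0.35) than in the non-mutator (0.72, 0.98 and 0.83, adjusted p = 0.014). Of 48 genes of this list, 20 rose in the non-mutator, 28 fell in the mutator and 12 did both, beside 10.2%, 37.8% and 6.09% of all probes. The non-mutator change was the larger, with a called difference, in 15 of them, beside 4.88% of all probes. HAC1, for the transcription factor of the unfolded protein response, was at -1.26 ± 0.19 in the mutator and -0.10 ± 0.09 in the non-mutator (adjusted p = 0.00019), and IRE1, for its upstream sensor, was opposed the other way, at 0.29 ± 0.05 in the mutator and -0.22 ± 0.11 in the non-mutator (adjusted p = 0.0015). The list and the genes named from it were chosen after values were seen.

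In all, 335 probes changed more in the non-mutator, 204 with the mutator value higher and 131 with it lower, and 1752 with arrays scaled. FET3, ARO10, STE2 and STE6 were among the 6 named genes with the largest such changes. The other 2 were NRT1, for a nicotinamide riboside transporter, at 0.01, -0.45 and -0.49 in the mutator and -1.36, -1.40 and -1.29 in the non-mutator, and CDC123, for an assembly factor of an initiation factor of translation, at -0.22, -0.33 and 0.04 in the mutator and -1.35, -1.37 and -1.15 in the non-mutator. Replicates of both genes were apart (adjusted p = 0.00093 and 0.00029), and the mutator mean of CDC123 did not pass (adjusted p = 0.1). Without non-mutator replicate 2, 3 or 4, 196, 119 and 119 probes changed more in the non-mutator.

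Several other genes among the 10 highest and 10 lowest differences changed in the mutator and did not pass in the non-mutator. TRP5 (YGL026C), for tryptophan synthase, was at 6.08, 7.33 and 6.62 in the mutator and -0.008, -0.13 and -0.07 in the non-mutator, the highest difference of all (6.75, interval 6.02 to 7.47, adjusted p = 1e-05). BUD5, for an exchange factor in bud site selection, was at 3.21 ± 0.77 in the mutator and -0.08 ± 0.04 in the non-mutator (adjusted p = 0.00036). PUF3, for an RNA-binding protein of mitochondrial messages, was at 3.15 ± 0.25 in the mutator and 0.18 ± 0.17 in the non-mutator (adjusted p = 1.6e-05). HEM3, for a heme synthesis enzyme, was at 2.75 ± 0.09 in the mutator and -0.16 ± 0.14 in the non-mutator (adjusted p = 4.3e-06). The ribosome assembly gene RSA4 was at 2.61 ± 0.05 in the mutator and 0.07 ± 0.24 in the non-mutator (adjusted p = 1.4e-05). At the other end, the meiotic spindle pole gene SPO21 was at -5.95, -5.92 and -5.79 in the mutator and -0.22, 0.03 and -0.17 in the non-mutator, and the small heat shock gene HSP26 at -5.84, -5.41 and -5.62 in the mutator and 0.25, -0.10 and 0.14 in the non-mutator. RTC2 was at -4.50 ± 0.35 in the mutator and 0.47 ± 0.16 in the non-mutator (adjusted p = 7e-06, 7.8e-07 for SPO21 and 2e-06 for HSP26). None of TRP5, BUD5, PUF3, HEM3, RSA4, SPO21, HSP26 and RTC2 passed in the non-mutator.

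Of the 42 lists, the general stress response, genes that yeast raises under many stresses, had the largest median difference (-2.71). Counts for the stress lists are to be read beside the 30.9% of all probes that were lower and the 33.0% that were higher. Of all probes, 37.8% fell in the mutator, 10.2% rose and 11.1% fell in the non-mutator, and 6.09% were opposed with the mutator down. Of 45 general stress response genes, 44 had a lower and 0 a higher difference, and replicate medians were -2.72, -2.94 and -2.88 in the mutator and 0.09, 0.07 and 0.04 in the non-mutator. All 45 fell in the mutator, while in the non-mutator 9 rose and 4 fell. The trehalose synthase subunit gene TSL1 was at -3.91 ± 0.04 in the mutator and -0.25 ± 0.04 in the non-mutator and so fell in both, whereas APE1 and RGI1 were opposed. Of 31 oxidative stress defence genes, 22 were lower and 0 higher, and 8 were opposed with the mutator down. The thiol peroxidase gene TSA2 was at -2.89 ± 0.09 in the mutator and -0.07 ± 0.12 in the non-mutator (adjusted p = 4.1e-06). Of 30 heat shock chaperone genes, 20 were lower and 3 higher, such as the disaggregase gene HSP104 at -3.04 ± 0.17 in the mutator and 0.01 ± 0.06 in the non-mutator (adjusted p = 4.1e-06); without the 4 members at the shared ratio, 16 of 26 were lower (of all 30, 11 with arrays scaled and 10 with the round as a block).

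Genes for making ribosomes were higher in the mutator, and some rose in both strains. Of 66 ribosome biogenesis genes, 65 had a higher and 0 a lower difference, beside 33.0% and 30.9% of all probes, and 14 rose in both strains, beside 2.83%. Replicate medians were 1.43, 1.49 and 1.47 in the mutator and 0.09, 0.11 and 0.17 in the non-mutator. RPF2, for a large-subunit assembly factor, was at 1.95, 2.08 and 2.06 in the mutator and 0.28, 0.31 and 0.40 in the non-mutator, while UTP8 was at 1.76 ± 0.05 in the mutator and -0.01 ± 0.02 in the non-mutator (adjusted p = 7.9e-06 and 4.5e-06). Of 26 RNA polymerase I and III genes, 24 were higher and 1 lower; RPC53 rose in both, to 1.35 ± 0.04 in the mutator and 0.22 ± 0.02 in the non-mutator (adjusted p = 1.7e-05). The opposed gene RPO31 was at 1.27 ± 0.08 in the mutator and -0.21 ± 0.03 in the non-mutator (adjusted p = 1.1e-05).

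For ribosomal proteins the non-mutator change could be read for part of the genes only, and counts are to be read beside the 33.0% of all probes that were higher. Of 81 large-subunit genes, 61 were higher and 0 lower, and without the 27 at the shared ratio, 35 of 54 were higher. Of 56 small-subunit genes, 44 were higher and 0 lower, and without the 18 at the shared ratio, 26 of 38 were higher. With arrays scaled 32 large- and 19 small-subunit genes were higher, and with the round as a block 33 and 18. The median difference of the genes off the shared ratio was 0.39 for the large and 0.36 for the small subunit. RPL22B was at 0.85 ± 0.12 in the mutator and -0.16 ± 0.15 in the non-mutator (adjusted p = 0.00027). RPS28B was at 1.02 ± 0.14 in the mutator and 0.05 ± 0.13 in the non-mutator (adjusted p = 0.00028). RPL15A and RPL15B (near-identical copies), RPL12B, RPS11B and RPS6A, also picked by the naming rule, sat at the shared ratio in the non-mutator. Glycolysis and fermentation had 14 of 20 genes at that ratio, TDH1 and PGK1 among them; of the 6 others, 4 were lower in the mutator, including the minor isozyme genes ADH5 (-3.67 ± 0.15 in the mutator against -0.21 ± 0.12 in the non-mutator) and PYK2 (-3.53 ± 0.36 in the mutator against 0.26 ± 0.05 in the non-mutator, adjusted p = 3.7e-06 and 1.2e-05).

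Cell-cycle genes were more often higher than lower in the mutator, beside 33.0% higher and 30.9% lower among all probes. Of 46 replication and S phase genes 32 were higher and 5 lower, among them the ribonucleotide reductase gene RNR1 at 1.69 ± 0.08 in the mutator and -0.21 ± 0.12 in the non-mutator (adjusted p = 1.1e-05). Of 27 mitosis and G2 genes 20 were higher and 1 lower, with the polo kinase gene CDC5 at 1.30 ± 0.05 in the mutator and -0.007 ± 0.04 in the non-mutator (adjusted p = 1.2e-05). With arrays scaled 21 replication genes and 12 mitosis genes were higher. Of 11 histone genes 7 were higher and 0 lower (6 of 10 off the shared ratio, 2 with arrays scaled); HTA2 was at 0.62 ± 0.04 in the mutator and 0.10 ± 0.06 in the non-mutator, HTB2 sat at the shared ratio, and with arrays scaled the calls of HTA2, HHF1 and HHF2 were lost. Of 15 pyrimidine synthesis genes 12 were higher and 2 lower: the CTP synthase gene URA7 was at 1.51 ± 0.03 in the mutator and 0.18 ± 0.07 in the non-mutator while its paralogue URA8 was at -1.82 ± 0.11 in the mutator and 0.04 ± 0.07 in the non-mutator, and URA10 was opposed at -2.44 ± 0.02 in the mutator and 0.40 ± 0.12 in the non-mutator (adjusted p = 1.3e-05, 1e-05 and 2.5e-06). Mitochondrially encoded genes, a list added after values were seen, had 12 of 14 members off the shared ratio higher in the mutator, 5 of them opposed, such as the intron gene BI2 at 1.30 ± 0.09 in the mutator and -0.39 ± 0.08 in the non-mutator (adjusted p = 1.2e-05).

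In lists of energy and nutrient use, counts are to be read beside the 33.0% of all probes that were higher and the 30.9% that were lower. Of 18 tricarboxylic acid cycle genes 12 were lower and 1 higher, but 5 lower and 5 higher with arrays scaled, and 6 lower with the round as a block. CIT1 fell in both, to -1.16 ± 0.05 in the mutator and -0.24 ± 0.04 in the non-mutator (adjusted p = 4.4e-05). The opposed gene LSC2 was at -0.26 ± 0.09 in the mutator and 0.49 ± 0.06 in the non-mutator (adjusted p = 0.00021). Of 38 oxidative phosphorylation genes 17 were lower and 1 higher, for example SDH4 at -1.66 ± 0.06 in the mutator and 0.08 ± 0.10 in the non-mutator (adjusted p = 1e-05), but the median difference was -0.59 with first-round and 0.11 with repeat mutator arrays, and 0.02 with arrays scaled, where 9 were lower (7 with the round as a block). Nitrogen catabolite repression genes were lower in 17 and higher in 6 of 34 cases: the ammonium permease gene MEP2 fell in both, to -2.55 ± 0.09 in the mutator and -0.24 ± 0.03 in the non-mutator (adjusted p = 3.6e-06). ASP3-2, 1 of several near-identical asparaginase copies, was opposed, at -1.23 ± 0.02 in the mutator and 0.20 ± 0.02 in the non-mutator (adjusted p = 7.1e-06). Cell wall genes were lower in 28 and higher in 8 of 50 (26 and 8 of 47 off the shared ratio), with a median difference of -0.38 that was -0.04 with arrays scaled. Of 30 sulfur and methionine genes, 15 were lower and 7 higher. MET28, for a regulator of sulfur metabolism, was opposed, at -1.59 ± 0.03 in the mutator and 0.56 ± 0.23 in the non-mutator (adjusted p = 2.2e-05). Of 24 thiamine and pyridoxine genes, 9 were lower and 3 higher, and the median difference of -0.25 turned to 0.26 with arrays scaled. In this list 3 genes fell in both strains and 1 was opposed with the mutator up, beside 5.55% and 3.25% of all probes. Opposed with the mutator down, beside 6.09% of all probes, were 3 genes whose probes may share signal with near-identical copies. These were SNO3 (-0.90 ± 0.10 in the mutator and 0.46 ± 0.04 in the non-mutator), SNZ2 (-0.74 ± 0.14 in the mutator and 0.50 ± 0.09 in the non-mutator) and SNO2 (-0.81 ± 0.19 in the mutator and 0.45 ± 0.03 in the non-mutator). Of 23 purine and one-carbon genes 11 were higher, such as ADE4 at 0.84 ± 0.13 in the mutator and -0.20 ± 0.02 in the non-mutator, and 5 lower, such as ADE2 (2 lower with arrays scaled). Counts for further lists are to be read beside the 33.0% of all probes that were higher and the 30.9% that were lower. Mitochondrial ribosomal proteins had 23 of 67 genes higher and 4 lower, and glucose-repressed carbon use 4 of 25 higher and 9 lower. With the round as a block 8 mitochondrial ribosomal protein genes were higher and with arrays scaled 14, while with arrays scaled 9 glucose-repressed genes were higher and 6 lower. Meiosis and sporulation had 7 of 45 higher and 17 lower, hexose transport 4 of 22 higher and 8 lower (4 and 7 of 21 off the shared ratio), and multidrug resistance 7 of 22 higher and 5 lower. The median difference of hexose transport had the other sign in 13 of 24 other fits and that of meiosis and sporulation in 6.

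**Figure D4:**
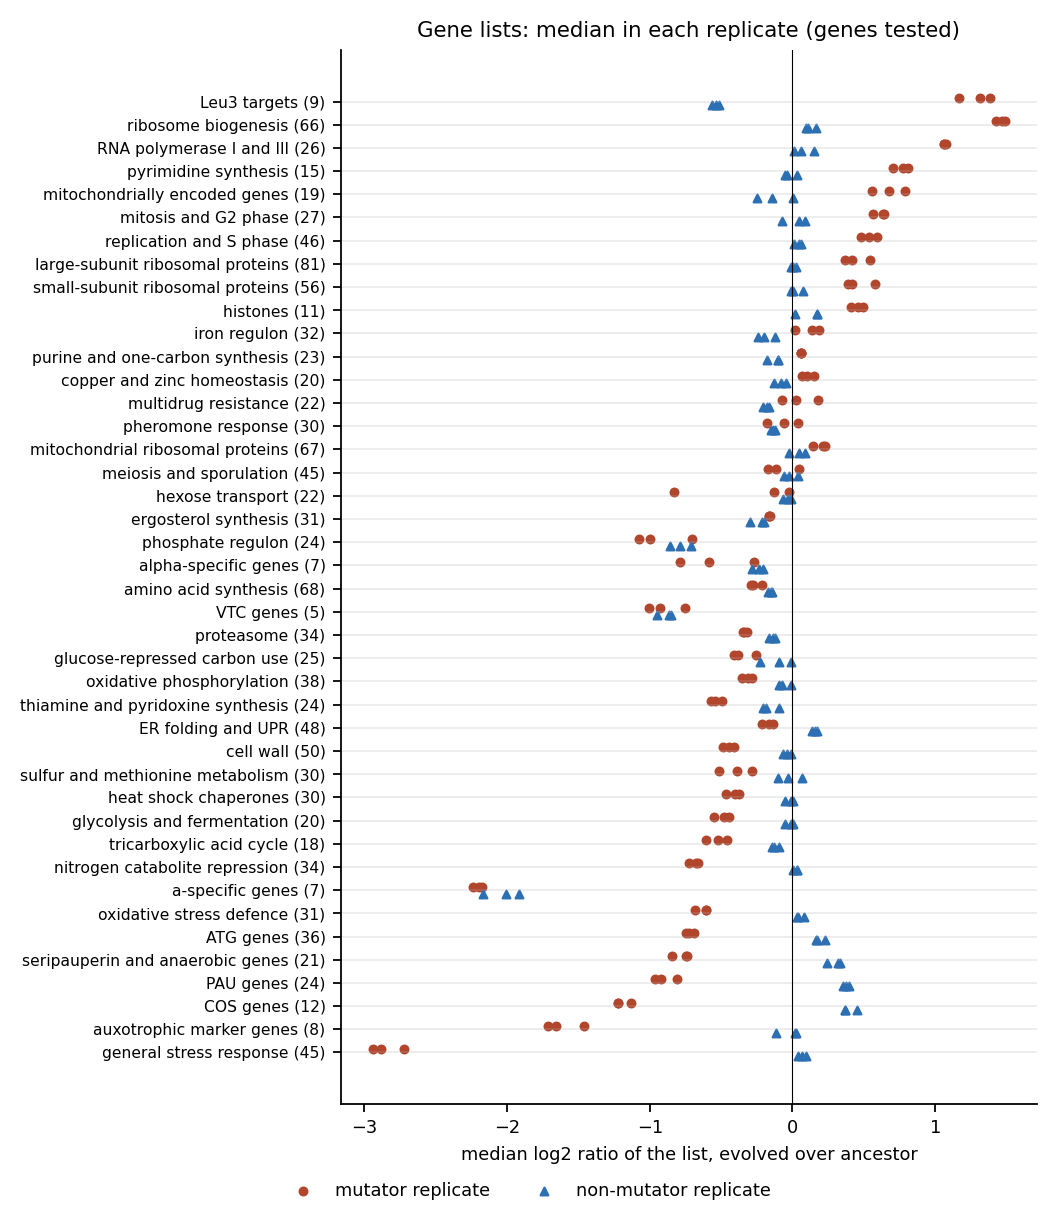
Median log2 ratio of evolved over ancestor (x axis) in each mutator replicate (circles) and non-mutator replicate (triangles) for 42 gene lists, with the number of genes tested in brackets, ordered by the difference. The general stress response lies near -2.9 in the mutator and near 0 in the non-mutator, the a-specific genes and the phosphate regulon lie below 0 in both, and the PAU, COS and ATG genes lie on opposite sides of 0.

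Both hybridisation rounds of the mutator gave the same sign for 544 of 575 probes that moved alike and for 609 of the 640 opposed probes with values in both rounds. These probes were called on means over the same rounds, which favours agreement in sign, so the counts are no separate check of the classes. Some genes differed in size between rounds: RGI1 was at -5.78 in the first and -3.69 in the repeat round, and YRO2 at -3.50 in the first and -5.68 in the repeat round. PAU1 was at -0.29 in the first and -1.34 in the repeat round, and ARO10 at 0.36 and 1.41 in the same rounds. HMG1, a sterol synthesis gene counted as opposed at 0.19 ± 0.05 in the mutator and -0.40 ± 0.04 in the non-mutator, was at -0.47 in the first and 0.85 in the repeat round, and on first-round arrays alone its difference was -0.07. In all of the 22 other fits that gave both group means, 24 probes moved alike (23 decreases, and JEM1). Another 26 moved in opposite directions in all of them (19 with the mutator down and 7 with it up). Some of these fits took only part of the probes, such as those of reference genes or those with a value on every array. A probe left out of any fit could not be counted, so other probes may have kept their class wherever they were tested. The shared decreases that stayed were MFA1, MFA2, STE2, STE6, BAR1, AGA2, SST2, GPA1, PHO5, PHO8, PHO11, PHO12, PHO84, SPL2, VTC1, VTC3, VTC4, ERG3, ERG11, LEU2, ADE12, YER152C and YDR034C-A. The opposed genes that stayed with the mutator up were LEU1, BAT1, SPT21, MSB2, ENA1, ENA2 and ALR1, and those with it down included HIS3, TOS8, EMP46, GTT1, AMS1, ATG7, ATG14, ATG17, ATG33, ERO1 and COS1.

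**Figure D5:**
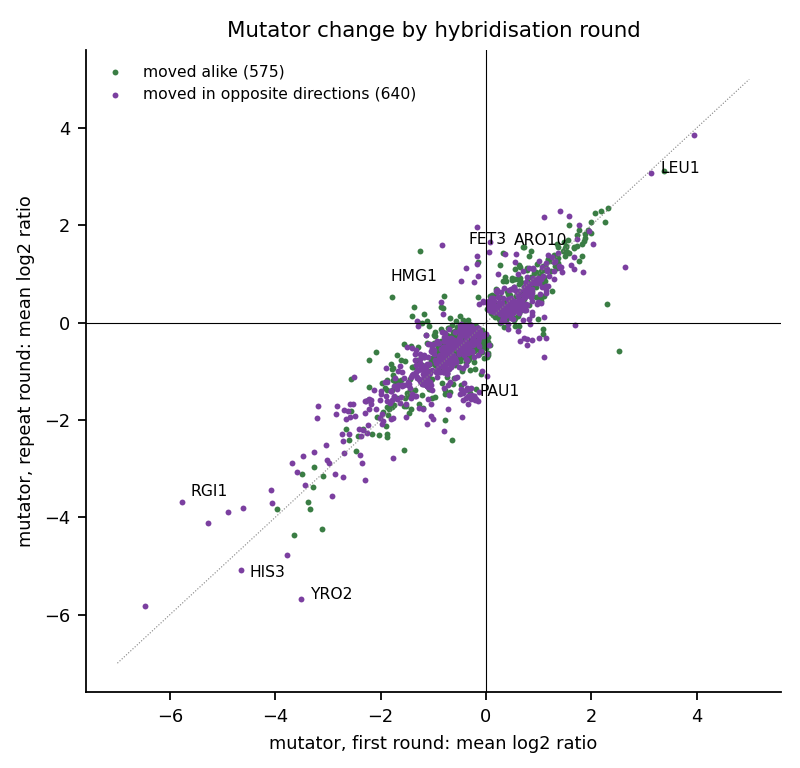
Mean log2 ratio of the mutator on first-round arrays (x axis) and repeat arrays (y axis) for 575 probes that moved alike (green) and 640 opposed probes with values in both rounds (purple); the dotted line marks equal values. FET3 and HMG1 lie on different sides of 0 in the rounds, and HIS3 and LEU1 lie near the line.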

How the data were processed

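The authors deposited 1 linear ratio per probe and array, with evolved RNA in Cy5 and ancestral RNA in Cy3 per the labels, so that evolved over ancestor is the likely direction. The sources used here give no scale, centring, background correction or software. Total RNA had been extracted with a Qiagen RNeasy kit, per the labels' protocols. Ratios were turned into log2 ratios. Ratios of 0.01 (tolerance 1e-04), the lowest on every array, were set to missing, and each array was centred on its median, which lowered mutator values by 0.08 to 0.12 and non-mutator values by up to 0.02. Of 6947 probes, 6377 bore a systematic name and 5840 matched a gene of the R64 reference table, which was used for symbols and chromosomes only; 0 columns were left unused.

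Mutator arrays were averaged by evolved RNA number to 3 replicates. The fit (limma 3.58.1 under R 4.3.3) took the 6866 probes measured in 2 or more replicates of both groups, which left out 81. It had a mean per group, 4 residual degrees of freedom, no block, and one estimate of the spread per probe shared by both groups. Group means and their difference were tested two-sided with Benjamini-Hochberg adjustment over all probes tested. A probe moved alike or in opposite directions if both means had an adjusted p under 0.05. The test of the difference was tried on simulated data with differences planted in a small part of the probes. The noise came from SDs of replicates averaged over rounds. Calls of the group means and the classes were not tried in this way. Intervals are 95% intervals of the fit; the number of arrays limits precision. Tables and figures used Python 3.11.15, pandas 2.3.3 and matplotlib 3.10.9.

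The naming rule took the 10 highest and 10 lowest called differences with no overlap of replicates; the 6 largest in each class; up to 4 members with the smallest p per list; and marker genes. Members and lists were chosen with earlier results of these data known, and 7 lists were added after values were seen. List counts and medians are descriptions, to be read beside those of all probes. Same-numbered samples of the strains did not deviate together (r = -0.02 for number 2 and 0.02 for number 3 across probes), so numbers were not taken as pairs. Promoter and protein sequences were not analysed here. Alternatives tried were other treatments of floor ratios, centring and scaling, other units of replication, blocks and array weights, single rounds, single replicates left out and stricter thresholds.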

Additional observations from a re-analysis of the deposited data

Results flagged for a closer look

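In the 6 genes that the naming rule took from each opposed class, every mutator replicate moved one way and every non-mutator replicate the other. Each had a called difference (limma, adjusted p under 0.05). This was not particular to them: 3.25% of all probes were opposed with the mutator up and 6.09% with it down. EGO4 (-6.64), TOS8 (-3.56) and FET3 (3.39), for example, moved in this way too. With the mutator up, the differences were 4.70 for OAC1, 4.07 for LEU1, 2.16 for ARO10, 2.08 for SPT21, 1.64 for MSB2 and 1.33 for SFG1. With the mutator down, they were -6.88 for HIS3, -3.06 for YPS6, -2.79 for YGL258W-A, -2.46 for GTT1, -2.25 for AMS1 and -2.14 for ULI1.

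The medians of 7 lists other than those added after values were seen also lay on opposite sides of 0 in all replicates of the strains, a difference that was not tested for the list. Of the 7 added lists, the Leu3 targets and the endoplasmic reticulum, ATG, PAU and COS genes did so too. The median difference was -2.71 for the general stress response, -1.18 for seripauperin and anaerobic genes, -0.86 for oxidative stress defence and -0.62 for nitrogen catabolite repression. Non-mutator replicate medians were near 0 for the general stress response (0.09, 0.07 and 0.04), oxidative stress defence (0.08, 0.03 and 0.04) and nitrogen catabolite repression (0.004, 0.03 and 0.03). These lists thus moved mainly in the mutator. The median difference was 0.36 for the iron regulon, 0.26 for purine and one-carbon synthesis and 0.24 for copper and zinc homeostasis, where the medians of both strains were within 0.25 of 0. On first-round arrays alone the mutator median was -0.17 for the iron regulon and -0.007 for copper and zinc, below 0 like the non-mutator medians.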

How the results depend on the processing

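The number of called differences (4390) stayed within a factor of 1.5 in the alternatives run, except for 2675 with the hybridisation round as a random block and 1328 at a log2 size of at least 1, and ranged from 3775 to 4576 with 1 replicate left out. With a replicate block for the shared numbers 2 and 3 it was 3467, and without centring 4608, of which 58.8% were higher in the mutator, against 51.6% in the reported fit. The classes varied more. With every array scaled to one median absolute deviation, 996 probes moved alike, 1026 in opposite directions and 1752 more in the non-mutator; with array weights per group the first of these counts were 962 and 1013. With the 6 mutator arrays as replicates the 3 counts were 117, 143 and 108, with a random block for RNA number 129, 152 and 116, and with the round as a random block 35, 33 and 38 (114, 137 and 103 with each non-mutator array as its own block). First-round arrays alone gave 332 and 381, and repeat arrays alone 260, 335 and 200. An adjusted p under 0.01 gave 165, 236 and 142, and a log2 size of at least 1 gave 19, 8 and 18. Leaving out 1 replicate gave 125 to 722 alike, 177 to 778 opposed and 119 to 411 more in the non-mutator. Each group fitted alone gave 810 alike, 886 opposed and 399 more in the non-mutator. Scaling reversed the difference of MFA1 (3.96), BAR1 (3.73), SPL2 (3.46), PHO11 (2.25), PHO12 (2.21), AGA2 (1.23), SAG1 (0.76), SCL1 (0.18), PRE8 (0.065), VTC3 (2.12), NDJ1 (2.11), PHO84 (1.60), VTC4 (1.51), VTC1 (1.5), ADE12 (0.66), ATG5 (0.60), LEU4 (0.57) and PHO81 (0.42), and of YPS5 (-1.67), SPO22 (-1.23), RRT5 (-1.09), PHO87 (-0.92), SIR2 (-0.69) and ECM1 (-0.19), since it enlarges non-mutator values. First-round arrays alone reversed SPO22 (-0.45) and HMG1 (-0.067), and MF(ALPHA)2 ranged from -0.75 without mutator replicate 1 to 0.84 without replicate 2. Of the other results for named genes under alternatives, 54 lost and 34 gained a call and 4949 kept direction and call; the cause was not tested. Leaving out the 248 probes at the shared non-mutator ratio, chosen after seeing the data as was the separate block for each non-mutator array, left 4176 differences, 591 alike and 661 opposed.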
